A study of Rattus norvegicus with 6 samples.

Results

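The genes followed here mark alveolar macrophages, read in rat lung: Marco, Trem2, Fabp4, Fabp5, Plet1, Pparg, Mrc1, Siglec1, Cd68 and Naaa, which are 10 of the 40995 genes in the deposited count table and were found there by their symbols. Lungs came from 3 wild-type (WT) rats and 3 rats of crTMPRSS2, a knockout (KO) line in which the Tmprss2 gene was edited with CRISPR/Cas9. All 6 rats were on a Sprague-Dawley background and untreated, and polyadenylated RNA of whole lung was sequenced as 1 library per rat. The sources used here give neither age nor sex, nor the exact edit or the number of founders of the KO line. The comparison asks how the lung of the edited line differs from WT at baseline.

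Alveolar macrophages live on the airway side of the alveolar wall, where they take up surfactant, inhaled particles and dead cells. Their identity is set by the cytokine GM-CSF and by TGF-beta, which maintain the nuclear receptor PPAR-gamma, and PPAR-gamma in turn drives genes of lipid uptake and storage such as the fatty acid binding proteins. The cells carry scavenger and lectin receptors on their surface and a large lysosomal compartment inside, and they are therefore recognised by a mixture of surface, lipid and lysosomal genes. Several of these genes are also used elsewhere in the lung: Fabp4 by endothelium and fat cells, Fabp5 by squamous epithelium, Plet1 by airway epithelium, and Mrc1, Cd68 and Siglec1 by other macrophages.

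Total read counts were 29933359 to 36895162 per library. One WT library, replicate 1, differed from the rest: its Pearson correlation with them, across genes, was 0.936 to 0.948, against up to 0.986 among the others. It held 10790 CPM (read counts scaled by library size with the TMM method) over 12 skeletal muscle markers and 3368 CPM over 12 squamous epithelium markers, where the other 5 libraries held 24.96 to 53.06 CPM and 5.706 to 12.73 CPM. Tmprss2 mRNA, at 50.5 to 65.7 CPM in WT and 46.1 to 56.4 CPM in KO, does not check the genotype labels, since a gene total cannot show a small edit, and its log2 fold change was -0.25. Results are therefore given with all 6 libraries and without WT replicate 1. In bulk lung RNA, fewer macrophages and less RNA of a gene per macrophage cannot be told apart.

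Promoter sequence around the annotated start was found in RefSeq (build GRCr8) for 7 of the 10 genes: Marco, Trem2, Plet1, Pparg, Mrc1, Cd68 and Naaa. Naaa, Trem2, Plet1, Mrc1 and Cd68 are shown because their values, described later, separated the genotypes without overlap, and each sequence runs from 120 bases before the start to 10 bases from it, 5′ to 3′ on the gene's strand. Capitals mark matches on either strand to 3 of 4 short motifs searched: AGGTCA, the half-site that PPAR-gamma and other nuclear receptors bind in repeats, GAGGAA, a core bound by the macrophage factor PU.1, and TGAGTCA, the AP-1 site. A match on the opposite strand appears as the reverse complement, as all do in Naaa, Trem2, Plet1 and Mrc1.
Naaa (chr14:16061479-16061608, plus strand): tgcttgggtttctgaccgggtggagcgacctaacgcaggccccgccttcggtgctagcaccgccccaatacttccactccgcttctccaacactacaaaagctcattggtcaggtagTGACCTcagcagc
Trem2 (chr9:20151770-20151899, minus strand): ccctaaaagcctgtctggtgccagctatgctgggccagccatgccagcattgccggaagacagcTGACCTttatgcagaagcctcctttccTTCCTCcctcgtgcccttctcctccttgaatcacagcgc
Plet1 (chr8:59738519-59738648, plus strand): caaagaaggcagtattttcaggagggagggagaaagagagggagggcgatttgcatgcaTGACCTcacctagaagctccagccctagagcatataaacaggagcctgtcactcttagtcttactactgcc
Mrc1 (chr17:82157605-82157734, plus strand): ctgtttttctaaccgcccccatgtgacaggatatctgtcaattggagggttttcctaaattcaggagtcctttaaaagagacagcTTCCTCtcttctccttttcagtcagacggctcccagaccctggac
Cd68 (chr10:54882432-54882561, minus strand): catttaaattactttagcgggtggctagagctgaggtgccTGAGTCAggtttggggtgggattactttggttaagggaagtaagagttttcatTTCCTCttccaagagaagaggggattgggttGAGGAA

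In windows of this length the AGGTCA half-site was found in Naaa, Trem2 and Plet1 and in 7.59% of all 33469 promoters. GAGGAA was found in Trem2, Mrc1, Cd68 and Marco and in 12.7% of all. TGAGTCA was found in Cd68, in 1 of the 2 Pparg starts and in 2.1% of all promoters. The other motif searched was CACGTG, an E-box that reads the same on both strands, present in none of the 7 genes and in 3.42% of all. A match is a description of the letters and not of a bound site.

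Marco, the collagen-like scavenger receptor for which alveolar macrophages are often gated, had almost no reads counted. It had 2, 0 and 0 reads in WT replicates 1 to 3 and 1, 1 and 0 reads in KO replicates 1 to 3. A count of 0 allows up to 3 reads, or 0.0813 to 0.1 CPM depending on the library, counting error only, so no comparison was possible and the gene did not pass the filter on low counts. Marco (chromosome 13, 31616278 to 31648521 of mRatBN7.2, minus strand) therefore could not serve as a marker in this count table, in either genotype. Whether the gene was low in these lungs or its reads were lost in annotation or counting cannot be told apart from the deposited tables. Fabp1 and Chi3l3, further genes used for this cell in mice, had at most 5 reads or none per library, whereas the integrin Itgax (42.4 to 73.1 CPM) and Siglec5 (11.9 to 16.7 CPM) were well detected. Siglec5, Fabp1 and Chi3l3 were named after their values were seen.

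**Figure D1:**
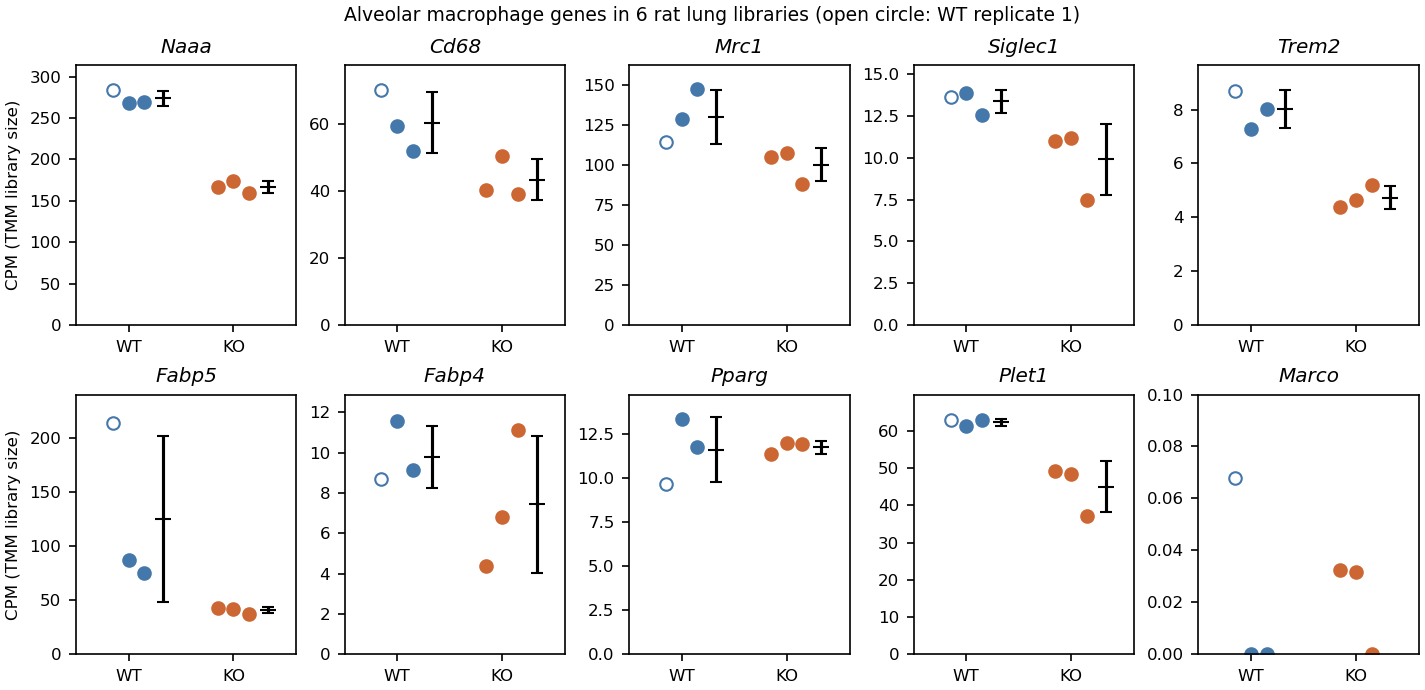
CPM of the 10 genes in each library, with WT in blue, KO in orange, WT replicate 1 as an open circle and black bars for mean and SD (n = 3; none for Marco). Naaa, Cd68, Mrc1, Siglec1, Trem2, Fabp5 and Plet1 show every KO library below every WT library, while Fabp4 and Pparg overlap and Marco stays at 2 reads or fewer.

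The other 9 genes had at least 135 reads in every library and were all tested. With all 6 libraries 0 of the 9 passed edgeR's quasi-likelihood test at a Benjamini-Hochberg adjusted p under 0.05 over 18464 genes, where 0.0542% of all genes passed (0.0379% lower and 0.0162% higher in KO). An unadjusted p under 0.05 was found for 6 of the 9, all lower in KO (6.29% of all genes were lower and 5.04% higher at that level). In 7 genes every KO library was below every WT library, as in 11.4% of all genes tested. Without WT replicate 1, Naaa, Fabp5, Mrc1 and Plet1 fell, 4 of 9 against 2.34% of all 18994 genes lower and 1.65% higher by the same test (3.99% in all), and Trem2, at an edgeR adjusted p of 0.0525, did not pass. With DESeq2 in place of edgeR on the 6 libraries, Naaa, Fabp5 and Trem2 were called lower, where 1.66% of all genes were and 2.71% were called in either direction. Limma-voom with sample quality weights called 6 of the 9 lower, where 4.86% of all genes were lower and 9.08% were called. DESeq2 without WT replicate 1 also called 6, where 3.5% were lower and 6.25% were called. Limma-voom without such weights, limma on log2 FPKM, and edgeR with other scalings or filters on the 6 libraries each called 0 of the 9. The median log2 fold change of the 9 was -0.47 with all 6 libraries and -0.46 without WT replicate 1, beside a median of 0 over all genes tested in either fit.

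**Figure D2:**
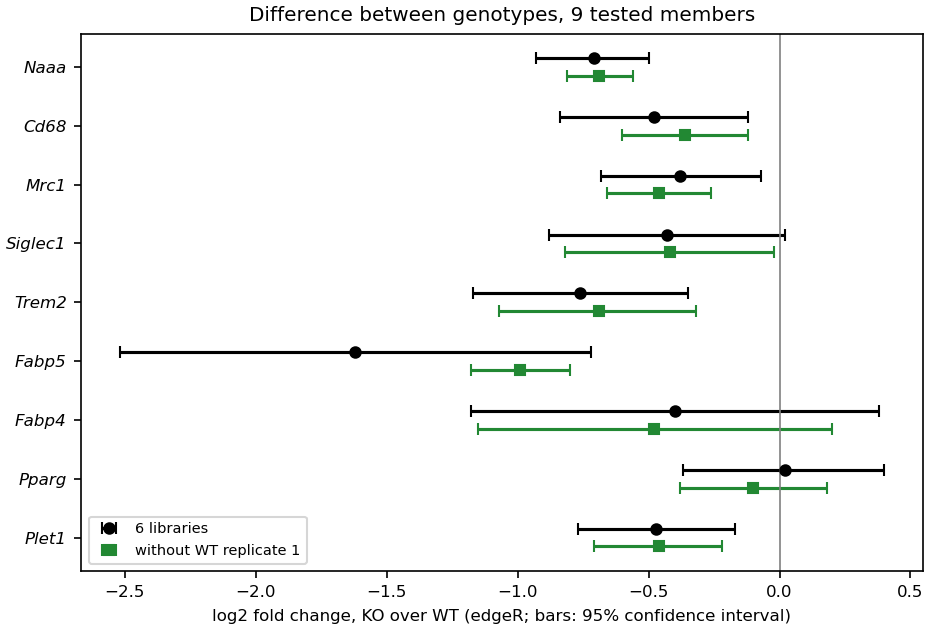
Log2 fold change, KO over WT, of the 9 tested genes with 95% confidence intervals from edgeR, with all 6 libraries (black circles) and without WT replicate 1 (green squares). Naaa and Fabp5 lie farthest from 0 for the width of their intervals without WT replicate 1, Fabp5 moves from -1.62 to -0.99, and Pparg sits at 0.02 and -0.10.

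Per length, the most abundant of the genes in WT lung were Fabp5 and Naaa. Their deposited FPKM values averaged 189 ± 118 and 151 ± 6.06 in WT (SD, n = 3), and their ranges overlapped. Cd68 followed at 50.2 ± 7.995 FPKM, Plet1 at 35.6 ± 0.725 and Mrc1 at 24.8 ± 3.05, with no overlap between neighbours. Trem2, Fabp4 and Pparg stood together at 6.77 ± 0.638, 5.50 ± 0.833 and 4.83 ± 0.743 FPKM, each overlapping the next, and Siglec1 was lower at 1.80 ± 0.0965. In KO lung the order began with Naaa at 91.4 ± 3.71 FPKM, above Fabp5 at 61.1 ± 4.05 without overlap. Trem2, at 3.98 ± 0.356 FPKM, came after Pparg (4.87 ± 0.138) and Fabp4 (4.15 ± 1.90), but its range overlapped that of Fabp4.

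**Figure D3:**
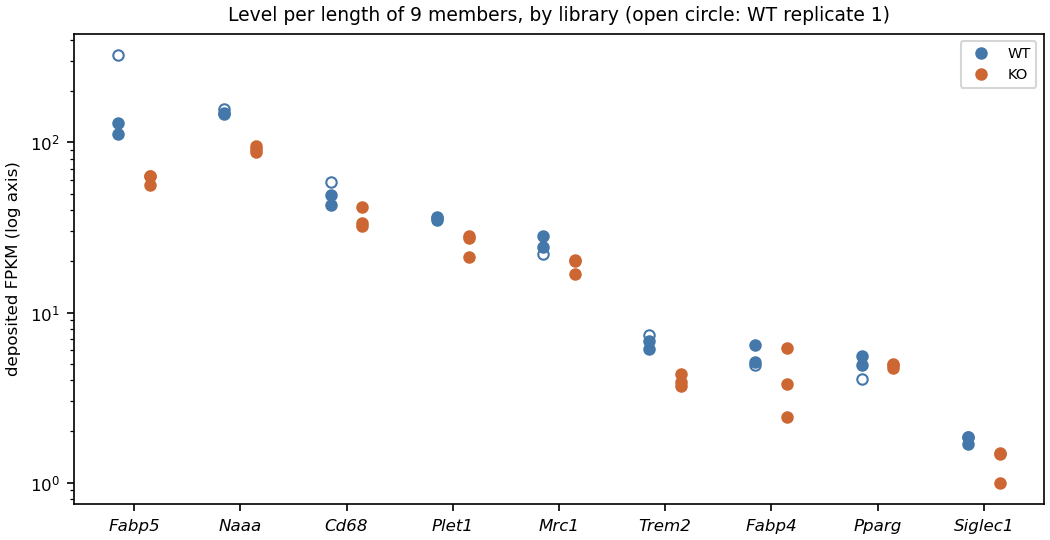
Deposited FPKM of 9 genes on a log axis, ordered by their WT mean, with WT libraries in blue (WT replicate 1 open) and KO libraries in orange. Fabp5 and Naaa lead, and Trem2, Fabp4 and Pparg form a low group between 2.45 and 7.41 FPKM above Siglec1.

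Naaa encodes N-acylethanolamine acid amidase, the lysosomal enzyme that breaks down palmitoylethanolamide, a lipid that dampens inflammation, and it lies on chromosome 14 (15777306 to 15796411, plus strand). In replicate order, Naaa measured 284, 268 and 270 CPM in the WT lungs, against 167, 174 and 160 CPM in the KO lungs. The libraries of each genotype lay close together and the groups were far apart, with WT replicate 1 beside the other WT libraries. The WT mean was 274 ± 9.01 CPM and the KO mean 167 ± 7.05 CPM (SD, n = 3). The fitted difference was -0.71 on the log2 scale, 1.64-fold lower in KO (SE 0.09, 95% interval -0.93 to -0.50, edgeR adjusted p = 0.0867). Naaa fell by 0.69 on the log2 scale without WT replicate 1 (SE 0.06, edgeR adjusted p = 0.000308).

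Other genes of the N-acylethanolamine pathway, a list of receptors as well as enzymes, did not pass the test in either fit. Of 11 tested, 6 were below 0 and 5 above, with a median of -0.05. Faah, the amidase of the endoplasmic reticulum that acts on the same lipids, stood at 23.3, 26.6 and 27.4 CPM in WT and at 29.5, 28.3 and 30.1 CPM in KO, and Asah1, the acid ceramidase related to Naaa, had a log2 fold change of -0.06. Gdpd1, a phosphodiesterase, stood at -0.37 (edgeR adjusted p = 0.304), the ion channel gene Trpv1 at -0.59 and Abhd4 at -0.29. Asah1 was named after its values were seen.

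Among 12686 genes with a mean of at least 5 CPM, those whose log2 CPM followed Naaa most closely over the 6 libraries were LOC103691939, Kcne3, Cndp1, Zfp469 and C5, with Pearson correlations of 0.994 to 0.997. Over the 5 libraries without WT replicate 1 they were Smad6, Sec24d, Sgpp2, Kcne3 and LOC103691939, at 0.996 to 0.999. Kcne3 and LOC103691939 were in both sets. With so few points, and a difference between genotypes in each gene, these values describe a shared separation of WT from KO libraries.

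Cd68, a lysosomal glycoprotein used as a general macrophage marker (chromosome 10, 54381814 to 54383693, minus strand), measured 70.1, 59.3 and 51.8 CPM in WT and 40.3, 50.3 and 39.2 CPM in KO. The groups did not overlap, and KO replicate 2 lay just below the lowest WT library, replicate 3. It differed by -0.48 on the log2 scale (SE 0.15, edgeR adjusted p = 0.339), and -0.36 without WT replicate 1 (SE 0.11, adjusted p = 0.109).

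The wider lysosome list lay in the same direction. All 20 tested lysosome genes outside the group were below 0 in both fits, where 50.3% and 49.3% of all genes were, with medians of -0.42 and -0.26. With all 6 libraries 0 passed edgeR and 16 had an unadjusted p under 0.05. Without WT replicate 1, 7 fell. Ctsd, the protease cathepsin D, stood at 930, 781 and 729 CPM in WT and at 461, 517 and 468 CPM in KO, and fell by 0.65 without WT replicate 1 (edgeR adjusted p = 0.00066). Npc1, which exports cholesterol from the lysosome, stood at 157, 140 and 138 CPM in WT and at 79.6, 84.8 and 96.2 CPM in KO, and fell by 0.68 (adjusted p = 0.0019). The peptidases Ctsz and Tpp1, the hexosaminidase subunit Hexa and the glucosidase Gaa fell by 0.38, 0.42, 0.39 and 0.39 in that fit. These enzymes are made by most lung cells. Markers of another lung cell were also below 0: all 10 alveolar type 2 cell markers were below 0 with all 6 libraries, with a median of -0.41, and 8 of 10 without WT replicate 1, with a median of -0.18. Their summed level was 48480, 31780 and 30300 CPM in WT and 27690 to 30140 CPM in KO, and their part in the result was not tested. Of this level, Lyz2 made up 13380, 8964 and 8751 CPM in WT and 8098 to 10230 CPM in KO. Lyz2 is also in the pan-macrophage list used below, and was named after its values were seen.

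Of the surface receptors, Trem2, a lipid-sensing receptor that signals through the adaptor Tyrobp (chromosome 9, 12647605 to 12654190, minus strand), measured 8.70, 7.30 and 8.04 CPM in WT and 4.37, 4.63 and 5.20 CPM in KO. All KO libraries were below all WT libraries, 1.69-fold lower on the fitted scale, and WT replicate 1 lay among the WT values. On the log2 scale KO differed by -0.76 (SE 0.18, 95% interval -1.17 to -0.35, edgeR adjusted p = 0.246), and -0.69 without WT replicate 1 (SE 0.17, adjusted p = 0.0525). With DESeq2 on the 6 libraries it was -0.76 with an adjusted p of 0.00844, a call that edgeR did not make.

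Genes of Trem2 signalling differed in direction among themselves. The adaptor Hcst had log2 fold changes of -0.04 and -0.20 with and without WT replicate 1. Tyrobp had log2 fold changes of 0.15 and 0.23 with and without WT replicate 1, and the kinase Syk, which acts below it, had 0.31 and 0.25. Plcg2, the phospholipase activated by Syk, stood at 23.3, 32.0 and 38.7 CPM in WT and at 49.0, 45.4 and 46.1 CPM in KO, and rose by 0.41 without WT replicate 1 (edgeR adjusted p = 0.0345). Of the other receptors of the family, Treml1, carried by platelets, fell by 2.10 without WT replicate 1 (edgeR adjusted p = 0.012), and Treml4 had a log2 fold change of 0.96 there (edgeR adjusted p = 0.0751). Both are also in the authors' deposited table of KO against WT, at -2.01 and 1.07. The 10 tested genes of this list outside the group had a median of 0.23 with all 6 libraries. Tyrobp and Hcst were named after their values were seen.

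Mrc1, the mannose receptor CD206 (chromosome 17, 77249187 to 77330857, plus strand), stood at 114, 129 and 148 CPM in WT and at 105, 107 and 88.2 CPM in KO. The groups did not overlap, and WT replicate 1 was the WT library nearest to KO. KO differed from WT by -0.38 on the log2 scale (SE 0.13, edgeR adjusted p = 0.376) with all 6 libraries. Mrc1 fell by 0.46 without WT replicate 1 (SE 0.09, edgeR adjusted p = 0.0221). The related receptors Mrc2, Ly75 and Pla2r1 had log2 fold changes of -0.26, 0.27 and -0.21 and did not pass in either fit.

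Siglec1, the sialic acid receptor CD169 (chromosome 3, 118287988 to 118307125, minus strand), measured 13.6, 13.9 and 12.6 CPM in WT and 11.04, 11.2 and 7.46 CPM in KO. The lowest value belonged to KO replicate 3, and the groups did not overlap. Its log2 fold change was -0.43 (SE 0.19, edgeR adjusted p = 0.446), and -0.42 without WT replicate 1 (adjusted p = 0.257), so it did not pass in either fit. Of 6 other siglecs tested, Cd22, a B cell receptor, rose by 0.51 without WT replicate 1 (edgeR adjusted p = 0.0442), while Cd33, at -0.44 (adjusted p = 0.12), did not pass. Of 11 tested scavenger receptors other than Marco, 0 passed in either fit (edgeR; 0 with an unadjusted p under 0.05 in the 6-library fit), and the hemoglobin scavenger Cd163 stood at -0.41 and -0.58 with and without WT replicate 1.

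The size of the Fabp5 difference depended on 1 library. Fabp5, the epidermal-type fatty acid binding protein (chromosome 2, 91765056 to 91768716, minus strand), measured 214, 86.9 and 74.9 CPM in WT and 42.5, 42.1 and 37.6 CPM in KO. Every KO library was below every WT library, and WT replicate 1 was far above the other WT libraries. The fitted difference was -1.62 on the log2 scale (SE 0.38, 95% interval -2.52 to -0.72, edgeR adjusted p = 0.248), 3.07-fold lower. Fabp5 fell by 0.99 without WT replicate 1 (SE 0.09, 95% confidence interval -1.18 to -0.80, edgeR adjusted p = 0.000387), 1.98-fold lower. The authors' deposited table of 192 genes (0.468% of all genes) lists Fabp5 at a log2 fold change of -1.63 with an adjusted p of 0.000334, and none of the other 9. The smallest absolute log2 fold change in that table is 1, so absence from it says nothing of smaller differences, such as those of Naaa and Trem2.

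Squamous epithelium makes Fabp5, and the library with the highest Fabp5 was the one with squamous RNA: the 12 markers summed to 3368, 12.73 and 10.75 CPM in WT replicates 1 to 3 and to 5.706 to 10.3 CPM in KO. In WT replicates 2 and 3 the marker sum was just above the KO range, and Fabp5 was above every KO library. The part of squamous RNA in the Fabp5 values was not tested. The 4 pseudogenes or copies of Fabp5 found in the count table had 0 reads in every library, and how reads that match several places were treated is not given in the sources used here, so a share of its reads may be uncertain.

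Fabp4, the adipocyte-type protein of the same family (chromosome 2, 91580858 to 91585578, plus strand), lies close to Fabp5 and did not share its separation. It stood at 8.70, 11.6 and 9.14 CPM in WT and at 4.37, 6.81 and 11.1 CPM in KO. KO replicate 3 lay among the WT values, and the groups overlapped. Its log2 difference was -0.40 (SE 0.33, 95% interval -1.18 to 0.38, edgeR adjusted p = 0.629), and -0.48 without WT replicate 1 (adjusted p = 0.474). The 12 adipocyte markers summed to 647.6, 497.3 and 468.2 CPM in WT and to 451.2 to 477.7 CPM in KO, most of it from genes such as Pnpla2 (198 to 244 CPM) and Lipe (96.9 to 138 CPM), lipases that other cells also make. Adipoq, the adiponectin gene, stood at 0.259 to 1.96 CPM over the 6 libraries and Plin1 at 0 to 1.34 CPM. KO replicate 3 was the highest KO library for both (1.499 and 1.34 CPM). WT replicate 1, the lowest WT library for Fabp4, was the highest of all 6 for Adipoq (1.96 CPM). Adipoq, Plin1, Pnpla2 and Lipe were chosen after their values were seen. The 12 capillary endothelium markers summed to 10080, 6125 and 5649 CPM in WT and to 5535 to 5806 CPM in KO. The part of these cells in the Fabp4 values was not tested. Of 8 other genes of the family, Fabp3 alone passed the filter on low counts, at a log2 fold change of 0.67 (edgeR adjusted p = 0.607).

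Pparg, the nuclear receptor above these lipid genes (chromosome 4, 148423102 to 148548471, plus strand), showed no difference that could be detected. It stood at 9.68, 13.4 and 11.8 CPM in WT and at 11.4, 12.01 and 11.9 CPM in KO, so that the KO libraries lay inside the WT range. Its log2 difference was 0.02 (SE 0.16, 95% interval -0.37 to 0.40, edgeR adjusted p = 0.965), and -0.10 (95% confidence interval -0.38 to 0.18) without WT replicate 1. A change of up to 0.37 below or 0.40 above on the log2 scale is inside the first interval. These are values of whole lung, and the part of alveolar macrophages in them was not tested.

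The GM-CSF, TGF-beta and PPAR-gamma list was mixed. Of 20 tested genes, 16 were below 0 with all 6 libraries (median -0.15) and 12 without WT replicate 1 (median -0.05). Bhlhe41, a transcription factor of alveolar macrophage self-renewal, stood at 22.6, 22.4 and 24.4 CPM in WT and at 16.4, 16.5 and 14.6 CPM in KO, and fell by 0.56 without WT replicate 1 (edgeR adjusted p = 0.0172). Cebpb, a myeloid transcription factor, fell by 0.49 in that fit (adjusted p = 0.0211). Bhlhe40 and Klf4 had log2 fold changes of -0.48 and -0.39 there and did not pass. The cytokine receptor genes Csf2ra and Csf2rb had -0.17 and -0.02 with all 6 libraries, and Spi1, which encodes PU.1, had -0.02; these 3 were named after their values were seen.

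The lipid list also held genes that fell. Abca1, a cholesterol exporter, stood at 153, 151 and 154 CPM in WT and at 103, 110 and 109 CPM in KO, and fell by 0.51 without WT replicate 1 (edgeR adjusted p = 0.00182). Abcg1, a second exporter, Plin2, the coat protein of lipid droplets, and Npc2, which hands cholesterol to Npc1, fell by 0.34, 0.29 and 0.34 in that fit. Of the 18 lipid genes tested, 5 fell and 0 rose without WT replicate 1, with Npc1 as the other one, and with all 6 libraries 0 passed edgeR (6 lower and 2 higher at an unadjusted p under 0.05). The medians were -0.28 and -0.08.

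Plet1, a surface glycoprotein of alveolar macrophages and some epithelia (chromosome 8, 50842210 to 50854015, plus strand), stood at 63.1, 61.4 and 62.9 CPM in WT and at 49.3, 48.6 and 37.1 CPM in KO. The WT libraries were nearly equal and KO replicate 3 was the lowest. Its log2 difference was -0.47 (SE 0.13, 95% interval -0.77 to -0.17, edgeR adjusted p = 0.277). Plet1 fell by 0.46 without WT replicate 1 (SE 0.11, edgeR adjusted p = 0.0457). Airway secretory markers did not share this direction as a list: of 10 tested, 4 were below 0 and 6 above, and Scgb1a1, the club cell secretory protein, rose by 0.38 and Scgb3a2 by 0.48 without WT replicate 1, while Krt19 fell by 0.30 (edgeR adjusted p 0.0167, 0.0205 and 0.0239).

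Other genes of alveolar macrophages, outside the group, were measured next. Of 18 tested, 14 were below 0 with all 6 libraries, with a median of -0.19, and 0 passed edgeR (5 lower and 1 higher at an unadjusted p under 0.05). Without WT replicate 1, 4 fell and 1 rose of 19. Lgals3, the lectin galectin 3, stood at 158, 143 and 133 CPM in WT and at 90.2, 98.7 and 85.6 CPM in KO, and fell by 0.59 (edgeR adjusted p = 0.00244). Krt79, a keratin that marks this cell in mice, fell by 0.60, Bhlhe41 as given above, and Clec7a, the beta-glucan receptor, by 0.40. Itgax, the integrin CD11c, went the other way: it stood at 42.4, 46.7 and 43.4 CPM in WT and at 62.3, 73.1 and 54.5 CPM in KO, and rose by 0.49 (adjusted p = 0.0372). CD11c is also carried by dendritic cells, and the part of other cells in the values of this list, falling or rising, was not tested.

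Genes used here as general macrophage markers, some of which other leukocytes also make, were balanced around 0 as a list. The pan-macrophage list averaged 6.09, 6.26 and 6.12 log2 CPM in WT replicates 1 to 3 and 6.19, 6.28 and 6.17 in KO replicates 1 to 3. Of its 13 genes, 7 were below 0 and 6 above, with a median of -0.04. Csf1r, the growth factor receptor of the lineage, stood at 295, 247 and 211 CPM in WT and at 209, 233 and 229 CPM in KO, and Adgre1, the F4/80 gene, at 19.5, 23.0 and 16.3 and at 21.6, 21.6 and 19.6 CPM; these 2 were named after their values were seen. Ptprc, the leukocyte marker CD45, and Itgam, an integrin of myeloid and natural killer cells, rose by 0.43 and 0.50 without WT replicate 1 (edgeR adjusted p 0.00495 and 0.0197). Cd14, the lipopolysaccharide coreceptor, stood at -0.46 with all 6 libraries and did not pass.

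The members were therefore also set against this list within each library, as log2 CPM minus the mean log2 CPM of the 13 genes. Naaa then stood at 2.06, 1.81 and 1.96 in WT and at 1.20, 1.16 and 1.15 in KO, a difference of -0.77. Trem2 differed by -0.81, Fabp5 by -1.51 (-1.01 without WT replicate 1), Plet1 and Cd68 by -0.54 each, Siglec1 by -0.51 and Mrc1 by -0.43. For these 7 genes all KO libraries lay below all WT libraries, a pattern found for 12.3% of all genes on this scale (7.72% had KO above WT). The exact two-sided permutation p was 0.1 for each, the smallest that 3 against 3 libraries can give. Fabp4 and Pparg differed by -0.55 and -0.03, and their groups overlapped. Laptm5, Ptprc and Cybb, which other leukocytes share, were then left out, though the shorter list still held Itgam, which natural killer cells also carry. On that list the differences of the 7 genes ranged from -1.44 for Fabp5 to -0.36 for Mrc1. All 7 kept the groups apart, beside 9.04% of all genes with KO below and 9.36% with KO above WT. Without WT replicate 1 the KO libraries were below both WT libraries for all 9 genes except Fabp4, beside 17.1% of all genes.

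**Figure D4:**
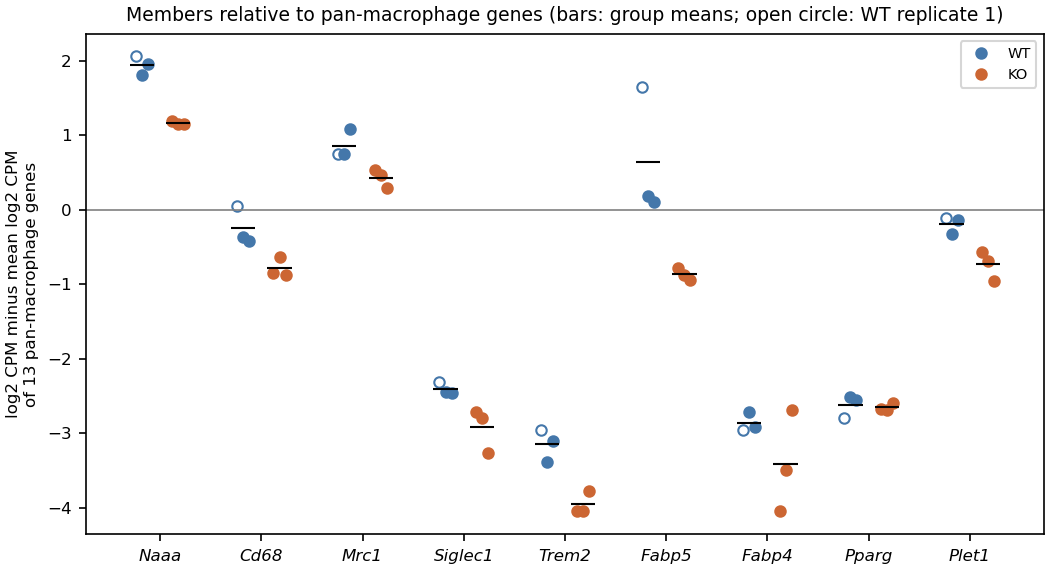
Log2 CPM of 9 genes minus the mean log2 CPM of 13 pan-macrophage genes in the same library, with WT in blue (WT replicate 1 open), KO in orange and bars for group means. For 7 genes the plot keeps the KO libraries below the WT libraries, by 0.43 (Mrc1) to 1.51 (Fabp5) on average, while Fabp4 and Pparg overlap.

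Lists of neighbouring myeloid cells went in different directions. The interstitial macrophage list had 10 of 13 genes below 0, with a median of -0.41 (-0.26 without WT replicate 1). Its complement genes were well detected and also below 0. C1qa stood at 81.8, 59.5 and 49.4 CPM in WT and at 45.8, 36.9 and 35.9 CPM in KO, without overlap. C1qa, C1qb and C1qc had log2 fold changes of -0.68, -0.57 and -0.46, and of -0.46, -0.26 and -0.20 without WT replicate 1. None of them passed edgeR in either fit, and C1qb and C1qc were named after their values were seen. Tmem119 fell by 0.56 without WT replicate 1 (edgeR adjusted p = 0.00734), and was the 1 gene of this list that passed. Apoe and Pf4, at -0.58 and -0.97 with all 6 libraries, did not pass. Cx3cr1, Lyve1 and Ms4a7 were the 3 genes above 0 with all 6 libraries, at 0.37, 0.19 and 0.20. Without WT replicate 1 they had 0.62, 0.33 and 0.19, Folr2 had 0.06, and none of them passed. These genes above 0 were named after their values were seen. The list summed to 1640, 1185 and 1068 CPM in WT and to 918.8 to 1060 CPM in KO. Mrc1, Cd68, Trem2 and Siglec1 are also made by these cells, and the part of interstitial macrophages in their values was not tested.

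Monocyte genes had 9 of 12 above 0, with a median of 0.60 (0.32 without WT replicate 1), and 5 rose in that fit. Spn, the sialoprotein CD43, stood at 45.5, 46.3 and 41.0 CPM in WT and at 70.5, 83.5 and 75.6 CPM in KO, and rose by 0.81 (edgeR adjusted p = 0.00139). Plac8, Cd300e and Fcnb rose by 0.70, 0.99 and 1.00, whereas Vcan, at -0.58 (adjusted p = 0.0506), did not pass. Spn and Plac8 are also made by lymphocytes. The dendritic cell list had 8 of 11 genes below 0 with a median of -0.19. Fscn1 and Clec9a fell by 0.38 and 0.39 without WT replicate 1 (adjusted p 0.0179 and 0.032), and Batf3, at -0.59, did not pass.

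**Figure D5:**
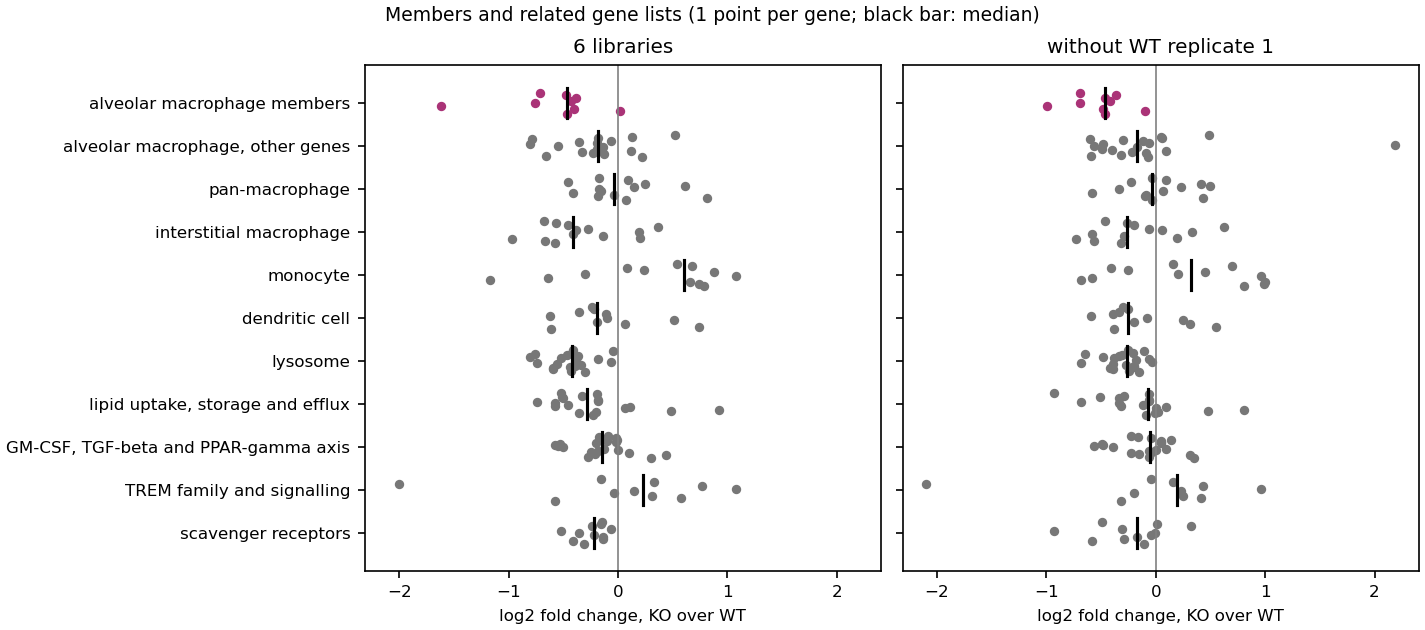
Log2 fold changes, KO over WT, of the 9 tested alveolar macrophage genes (purple) and of 10 related lists (grey, members left out), 1 point per tested gene and a black bar at each median, with all 6 libraries on the left and without WT replicate 1 on the right. The medians of the members, -0.47 and -0.46, lie below those of the pan-macrophage list, -0.04 and -0.03, and the monocyte list lies above 0, at 0.60 and 0.32. The lysosome and interstitial macrophage lists lie near the members with all 6 libraries, at -0.42 and -0.41. Both have a median of -0.26 without WT replicate 1.

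The genes followed one another unevenly across libraries. Over the 6 libraries, Pearson correlations of log2 CPM were 0.96 between Naaa and Trem2 and between Plet1 and Siglec1, and 0.88 between Plet1 and Mrc1. Pparg had correlations of -0.55 to 0.29 with the other 8 genes, and Fabp4 of -0.04 to 0.60. Without WT replicate 1, Pparg had correlations of 0.31 to 0.76 with the other 8 genes, and Fabp4 of -0.07 to 0.69. Fabp5 and Naaa reached 0.99 there. These values include the difference between genotypes and rest on 6 or 5 points. KO replicate 3 was the lowest library of all 6 for Naaa, Cd68, Mrc1, Siglec1, Fabp5 and Plet1, but not for Trem2, Fabp4 or Pparg.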

How the data were processed

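Per the labels' protocols, RNA was extracted from lung with TRIzol, selected on poly-T beads and sequenced as paired reads. The submitters' processing notes name the build mRatBN7.2 and, with no roles or settings, DESeq2 1.42.0, featureCounts 2.0.6, StringTie 2.2.3, HISAT2 2.2.1 and CASAVA. The authors deposited raw counts per gene. The deposited FPKM values were checked to be the count over the gene's length and 1 library size per library, 29400000 to 37600000. The authors' deposited table of 192 genes holds a size-factor normalized signal, p-values and log2 fold changes.

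Counts were tested with edgeR 4.0.16 in R 4.3.3 (TMM, filterByExpr with a minimum count of 10 and total of 15, quasi-likelihood test on genotype, Benjamini-Hochberg adjustment over all tested genes, threshold 0.05). Standard errors are the log2 fold change over the square root of F. CPM uses TMM library sizes, and log2 CPM a prior count of 2. Groups and replicate numbers come from the sample titles, which name the rats as biological replicates. The edgeR fits were also run on simulated counts, whose recovery rates are not given here. No simulated library stood apart, so that check does not cover the effect of WT replicate 1. All libraries carry 1 batch label. Alternatives used DESeq2 1.42.0, limma 3.58.1, other scalings and filters, a replicate block, and each library left out.

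The members and the context lists were chosen with earlier results of these data known. All 10 members are named; of each list, up to 4 genes with the smallest p and up to 6 in all where they pass, others being marked. Of 231 list symbols, 227 matched by name, 3 through RefSeq and 1 was not matched. Likeness to Marco was planned but not computed, as it was too low to test. Promoters are RefSeq's on GRCr8; gene coordinates are those deposited. One gene of the monocyte list is not reported here by name.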

Additional observations from a re-analysis of the deposited data

How the results depend on the processing

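Changed genes numbered 10 with all 6 libraries, 501 with DESeq2, 1676 with limma-voom and sample quality weights, 1188 with DESeq2 without WT replicate 1 (758 with edgeR), and 1 to 758 with 1 library left out, where 758 is without WT replicate 1 and the others gave at most 7. Called members numbered 0 with all 6 libraries, 3 with DESeq2, 6 with quality weights, 6 with DESeq2 without WT replicate 1, and 0 to 4 with 1 library left out, 4 being without WT replicate 1; the cause was not tested. The DESeq2 calls of Naaa, Fabp5 and Trem2 had adjusted p of 2.8e-10, 0.00106 and 0.00844. Naaa, Fabp5, Trem2, Plet1, Mrc1, Cd68, Siglec1 and Fabp4 were below 0 in all 17 alternatives, and Naaa ranged from -0.75 to -0.67, Fabp5 from -1.89 to -0.99 and Trem2 from -0.83 to -0.64. Pparg turned from 0.02 to -0.14 with quality weights and to -0.10 without WT replicate 1, by edgeR and by DESeq2, and ranged from -0.10 to 0.13 with 1 library left out. With the replicate block 2 genes passed and 0 members. Limma-voom without weights, limma on log2 FPKM, and edgeR with other scalings or filters each gave 7 to 14 genes and 0 members. Same-numbered libraries had correlations of -0.081, 0.027 and -0.085 in their deviations, and other pairs -0.11 to 0.12. No pairing by number was seen, though 3 libraries per group cannot exclude it. Of the 10 genes, Marco had too few reads for a test.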
